A study of Mus musculus with 4 samples.

Results

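The solute carriers are a large group of membrane transport proteins, and their genes carry symbols that begin with Slc and a family number. Here they were followed through the 3 epithelial lineages of the mouse mammary gland in single-cell RNA-seq counts. A gene was included when its symbol began with Slc followed by a digit and when it had at least 300 counts in total over all cell barcodes of 3 libraries. Of 27998 genes listed, 373 had such a symbol and 120 of these, from 37 families, reached the minimum. The count that chose them is a measured level. It used no lineage or stage label, but 63 of the 120 members would fall under the minimum without the lineage in which they had most counts, and 41 without the puberty library, which was the deepest. Counts over the members are therefore descriptions. The same holds for fold changes and p-values of those 63 members in the lineage where they had most counts. The members just inside the minimum were Slc27a4 with 312 counts, Slc5a8 with 310 and Slc25a26 with 309, and the genes just outside were Slc12a9 with 295, Slc35a5 with 291 and Slc18b1 with 289. Of the 253 Slc genes under the minimum, 178 had at least 1 count and 75 had none. Several transporters of the lactating gland were among those with few counts, including the zinc exporter gene Slc30a2 with 22, the phosphate transporter gene Slc34a2 with 121 and the glucose cotransporter gene Slc5a1 with 192.

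Total epithelium (Lin-CD24+ cells) was sorted from FVB/NJ female mice, and single cells were captured in droplets on the 10x Genomics Chromium platform. The puberty library came from glands at 5 weeks of age, and the adult libraries from glands at 10 weeks, in estrus or in diestrus, with the glands of 2 mice pooled for each phase. No treatment was given, and no pregnant or lactating gland was among these libraries. The puberty library held 25365324 counts, the estrus library 10962454 and the diestrus library 11868593. Basal (myoepithelial) cells were taken by their markers such as Krt14 and Acta2, luminal progenitor (LP) cells by Elf5 and Kit, and mature luminal (ML) cells by Prlr and Areg, with every Slc gene kept out of the classification. In the puberty, estrus and diestrus libraries this gave 1142, 1310 and 1054 basal cells, 1770, 471 and 565 LP cells, and 2184, 785 and 678 ML cells. The summed level of the 8 basal markers was 24104 to 38213 CPM in basal sums and at most 154 in luminal sums, where marker levels are counts per 1e6 counts of the sum. All other CPM are counts per 1e6 of the TMM-scaled total of a sum. The 8 LP markers stood at 17668 to 39370 CPM in LP sums against at most 619 elsewhere, and the 8 ML markers at 9123 to 13376 CPM in ML sums against at most 316 elsewhere. Of other cell types, 5 fibroblast markers summed to 249 to 291 CPM in basal, 1.1 to 1.83 in LP and 251 to 712 in ML cells, with Col1a2 and Lum at 0 in every ML sum. Dcn alone was at 243 to 279 CPM in basal sums and at 250 to 712 in ML sums. The 5 erythroid markers reached 542 CPM in ML cells of diestrus, where Hba-a1 alone was at 512, while Hbb-bs and Hbb-bt were at 0 in every ML sum. Immune and endothelial markers stayed at or under 35 and 21.9 CPM. The part of such cells in the results was not tested.

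Solute carriers move amino acids, sugars, ions, metals, nucleosides, vitamins and lipids across membranes, as cotransporters driven by an ion gradient, as exchangers or as facilitators. Secretory epithelium takes up milk precursors from the blood side with them and loads the Golgi with nucleotide sugars and zinc. A large family, Slc25, lies in the inner mitochondrial membrane. The symbol rule also caught 4 genes that are not transporters: Slc9a3r1 and Slc9a3r2, the NHERF scaffold proteins that bind the tails of membrane proteins, and Slc7a6os and Slc4a1ap. Family numbers do not always name the cargo, as the Slc5 family shows with its carriers of iodide (Slc5a5), vitamins (Slc5a6), monocarboxylates (Slc5a8) and inositol (Slc5a3).

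Lineages were compared on counts summed per lineage within each library (9 sums), with edgeR's quasi-likelihood test, the library as a block and Benjamini-Hochberg adjustment over all 8385 genes with at least 300 counts. Because the members were held to the same minimum as every gene tested, all 120 entered the test. The sums held 1819415 to 11413107 counts. The members together took 0.835 to 0.896% of the counts of basal sums, 0.689 to 0.703% of LP sums and 0.738 to 0.775% of ML sums, and Slc25a5, Slc25a4, Slc25a3 and Slc3a2 made up 44.3 to 68% of these. A member was called higher in a lineage when both contrasts with the other lineages had an adjusted p under 0.01. The replicates were 3 libraries of different stages, so p-values measure the spread between these libraries. By this rule 17 members (14.2%) were higher in basal cells, against a background of 11.5% of all genes, 9 (7.5%) were higher in LP cells against 6.13%, and 16 (13.3%) were higher in ML cells against 9.83%. The members lower in a single lineage were 17 for basal cells against a background of 9.47%, 4 for LP cells against 4.73% and 10 for ML cells against 8.81%. Without the library block, 5 members were higher in LP cells, and the share of all genes at that setting is not given here. In all, 80 members passed at least 1 pairwise contrast (66.7%, background 57.8%) and 40 passed none. With a fold of at least 2 asked for as well, 15 members were higher in basal cells, 9 in LP cells and 14 in ML cells, against backgrounds of 7.98%, 4.45% and 5.47%. These were 12.5%, 7.5% and 11.7% of the members. The median absolute log2 fold change of the members was 0.71 between basal and LP cells, 0.93 between basal and ML cells and 0.62 between LP and ML cells, beside 0.46, 0.57 and 0.44 over all genes tested.

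**Figure D1:**
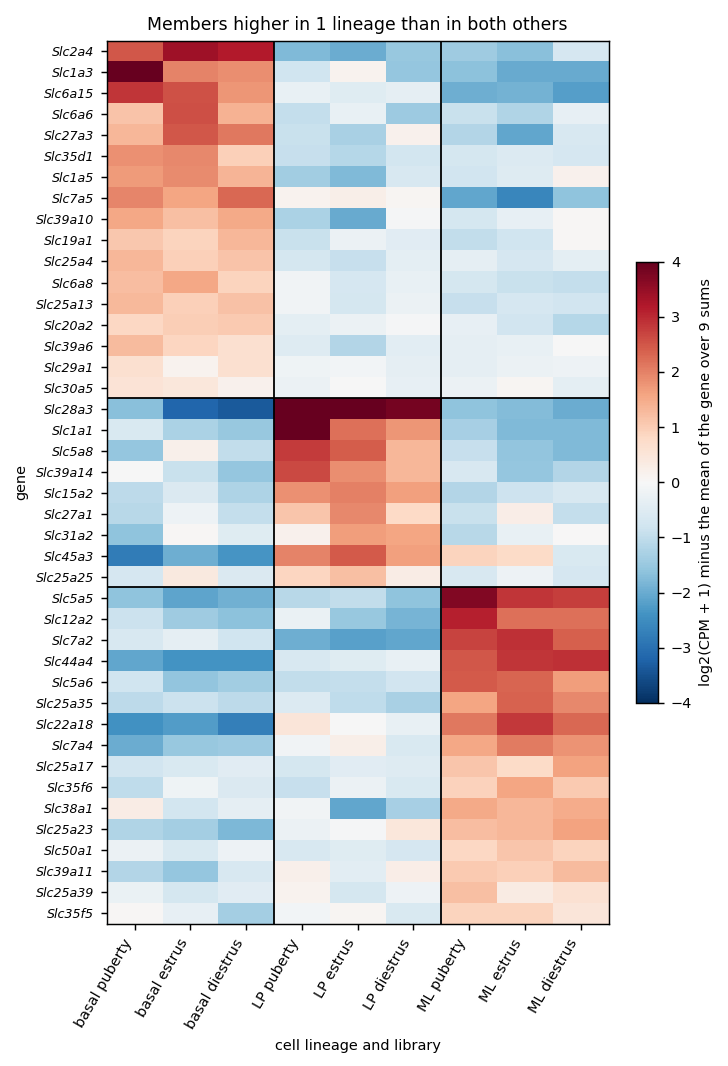
Level of the 42 members higher in 1 lineage (rows) in each of the 9 lineage sums (columns), as log2(CPM + 1) minus the mean of the gene over the 9 sums, with colours capped at 4. The 17 basal, 9 LP and 16 ML members are separated by black lines, and each block is red in its own lineage in all 3 libraries.

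The promoter of a leading member of each lineage is shown as an example, and this choice was made after values were seen. Each is the 250 bases before the start site on the minus strand of GRCm38.p6, from RefSeq, for the member with the highest rank that the RefSeq promoter set held. Capitals mark AGGAAG or its reverse complement CTTCCT, a core bound by ETS factors, the family of the LP marker Elf5. The basal member Slc1a3 (chr15:8710808-8711057) has no match in this window, and the LP member Slc28a3 (chr13:58610878-58611127) and the ML member Slc5a5 (chr8:70892758-70893007) have 1 each.
Slc1a3: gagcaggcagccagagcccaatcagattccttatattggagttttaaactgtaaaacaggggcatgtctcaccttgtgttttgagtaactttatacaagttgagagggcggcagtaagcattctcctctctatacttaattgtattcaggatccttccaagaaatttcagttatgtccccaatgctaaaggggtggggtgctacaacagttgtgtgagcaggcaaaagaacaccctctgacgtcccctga
Slc28a3: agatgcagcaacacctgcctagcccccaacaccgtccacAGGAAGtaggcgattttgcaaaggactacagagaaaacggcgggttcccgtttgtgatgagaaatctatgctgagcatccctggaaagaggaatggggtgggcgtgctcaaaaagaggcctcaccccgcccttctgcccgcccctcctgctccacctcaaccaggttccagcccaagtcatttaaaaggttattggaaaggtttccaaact
Slc5a5: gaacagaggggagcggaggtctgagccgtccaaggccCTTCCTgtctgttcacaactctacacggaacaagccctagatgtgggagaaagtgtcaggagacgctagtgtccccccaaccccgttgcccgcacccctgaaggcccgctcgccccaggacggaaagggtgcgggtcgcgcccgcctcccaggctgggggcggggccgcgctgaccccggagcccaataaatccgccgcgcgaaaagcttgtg
Of 120 members, 91 had a RefSeq promoter. AGGAAG was present on either strand in 25 of these 91, beside 29.2% of 27018 promoters of the same length. It was found in 0 of 9 members higher in basal cells, 1 of 8 higher in LP cells and 6 of 11 higher in ML cells. The GATA core AGATAA was found in 1 member of each of these sets, beside 10.2% of all promoters, and the forkhead motif TGTTTAC was found in 0 of the 91, beside 3.06% of all promoters. These are matches of letters, and they do not show binding.

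Basal cells were set apart by carriers of glucose and of acidic, neutral and aromatic amino acids. The gene for the insulin-responsive glucose transporter GLUT4, Slc2a4 (chr11:69942539-69948188), stood at 21.2 CPM in puberty, 39.8 in estrus and 34.1 in diestrus in basal cells. In LP cells it was at 0.161, 0 and 0.368 CPM and in ML cells at 0.467, 0.239 and 1.45 CPM. Every basal sum was above every luminal sum. The LP sums held 2 counts in all, so the basal-to-LP ratio of 172 has a counting interval from 47.4 to 1427 (95%, exact, counting error only). The log2 fold change of basal over ML cells was 5.47 ± 0.36 (SE, n = 3 libraries, edgeR adjusted p = 1.39e-06). Slc2a4 is best known from muscle and fat. The adipocyte marker Adipoq was at 0 in all 9 sums, and the summed level of 5 adipocyte markers, of which 1 to 4 had counts in the basal sums, was 8.6 to 24.8 CPM in basal, 1.47 to 4.09 in LP and 0.35 to 0.802 in ML cells. Fabp4 alone stood at 9.65, 23.6 and 8.18 CPM in the basal sums of puberty, estrus and diestrus. The part of adipocytes in the Slc2a4 level was not tested.

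Slc1a3 (chr15:8634124-8710764), the glutamate and aspartate transporter of glia, stood at 65.2, 14.9 and 13.5 CPM in basal cells in puberty, estrus and diestrus. It was at 1.29, 3.37 and 0.368 CPM in LP cells and at 0.28, 0 and 0 in ML cells. The groups did not overlap, and the puberty basal sum stood well above both adult ones. The basal-to-LP log2 fold change was 4.64 ± 0.54 (SE, edgeR adjusted p = 9.29e-05). Basal sums held 396 of the 435 counts of Slc1a3, so this too describes a member chosen where it is high. The ML sums held 3 counts, which gives a basal-to-ML ratio of 179 with a counting interval of 60.7 to 870. Of 5 Schwann cell markers, 3 or 4 had counts in each basal sum, where their summed level was 73.3, 317 and 146 CPM in puberty, estrus and diestrus. In LP sums it was 29.5 to 40.7 CPM and in ML sums 14.1 to 20.1, and Pmp2 was at 0 in all 9 sums. Egr2 alone stood at 68.3, 270 and 136 CPM in the basal sums of puberty, estrus and diestrus. The Schwann marker sum was lowest among basal sums in puberty, where Slc1a3 was highest, and the part of such cells in the level was not tested.

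The amino acid carriers Slc6a15, Slc6a6, Slc6a8, Slc1a5 and Slc7a5 were higher in basal cells as well. Slc6a15 (chr10:103367783-103419377), a sodium-dependent carrier of branched-chain amino acids and proline, was at 32.2, 25.8 and 14.5 CPM in basal cells, at 2.25 to 2.75 in LP cells and at 0 to 0.239 in ML cells. Its levels ran from basal over LP to ML, with no overlap between any pair of lineages. Its basal-to-LP log2 fold change was 3.25 ± 0.29 (SE, edgeR adjusted p = 1.56e-05), and the 3 counts in ML cells gave a basal-to-ML ratio of 144 with a counting interval of 49 to 704. Without the puberty library its contrast of ML to LP cells had a log2 fold change of -4.03 and missed the threshold (edgeR adjusted p = 0.0117). Basal sums held 320 of the 371 counts of Slc6a15, which reached the minimum only through them, so its basal call is a description. The taurine transporter gene Slc6a6 was at 64.4, 176 and 76.7 CPM in basal cells against 9.94 to 23.1 in LP and 12 to 22.6 in ML cells. The creatine transporter gene Slc6a8 was at 20.6 to 32.5 CPM in basal cells and at most 9.37 in luminal cells.

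The glutamine carrier gene Slc1a5 (ASCT2) stood at 72.9, 82.2 and 56.7 CPM in basal cells, at 7.59, 5.62 and 13.6 in LP cells and at 12.4, 14.8 and 24.3 in ML cells. Every basal sum was above every luminal sum, with log2 fold changes of 2.98 ± 0.31 over LP and 2.11 ± 0.28 over ML cells (SE, edgeR adjusted p = 4.69e-05 and 0.000142). Slc7a5 (LAT1), the large neutral amino acid exchanger that forms a heterodimer with the Slc3a2 heavy chain, was at 72.1, 56.4 and 92.8 CPM in basal cells. It was at 19.9, 21.4 and 19.1 CPM in LP cells and at 3.55, 2.15 and 5.21 in ML cells. The light chain gene was thus graded from basal to LP to ML cells, with log2 fold changes of 1.87 ± 0.19 for basal over LP and 2.48 ± 0.25 for LP over ML (SE, edgeR adjusted p = 4.31e-05 and 3.77e-05). Its partner Slc3a2 was instead at 383, 784 and 646 CPM in basal, 781, 998 and 534 in LP and 150, 222 and 174 in ML cells. Basal and LP values of Slc3a2 overlapped, and the gene was lower in ML than in both other lineages (log2 fold change of LP over ML 2.08 ± 0.20, SE, edgeR adjusted p = 3.43e-05).

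**Figure D2:**
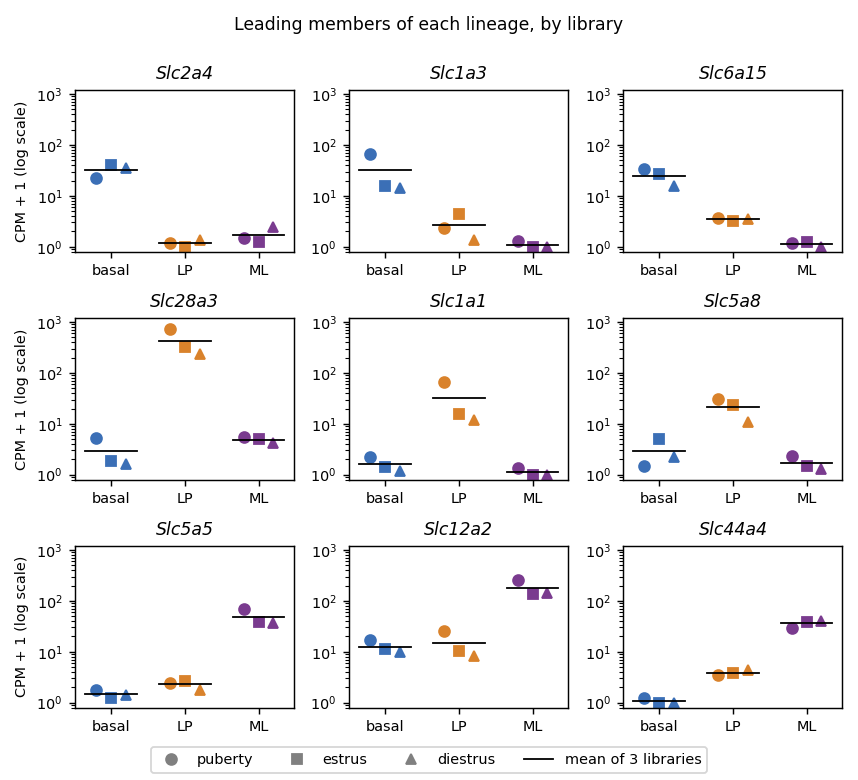
CPM + 1 on a log axis of 9 leading members (panels, 3 per lineage) in basal, LP and ML cells; each marker is 1 library (circle puberty, square estrus, triangle diestrus) and the line is the mean of 3 libraries. In each panel the 3 sums of 1 lineage sit above the other 6, and puberty is the highest library of that lineage for Slc1a3, Slc6a15, Slc28a3, Slc1a1, Slc5a8, Slc5a5 and Slc12a2.

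Other members higher in basal cells handled metals, fatty acids, vitamins and mitochondrial metabolites. The zinc importer gene Slc39a10 was at 13.6 to 17.2 CPM in basal cells and at most 5.49 in luminal cells, and the related Slc39a6 at 20.2 to 32 against at most 12.4. Slc27a3, of the fatty acid transport protein family, was at 12, 28.2 and 21.2 CPM in basal cells and at most 4.79 in any luminal sum. Slc35d1, a Golgi and ER carrier of UDP-sugars, was at 24.5, 26 and 12.7 CPM against at most 3.83. Slc19a1, the reduced folate carrier, stood at 29.9 to 40.6 CPM in basal and at 7.38 to 15.9 in luminal cells. The heart and muscle ADP/ATP exchanger gene Slc25a4 was at 1972, 1540 and 1752 CPM in basal cells, against 414 to 604 in LP and 492 to 622 in ML cells. Its log2 fold change was 1.82 ± 0.11 over LP and 1.62 ± 0.11 over ML cells (SE, edgeR adjusted p = 1.25e-06 and 1.65e-06). The second ADP/ATP exchanger, Slc25a5, was at 1723 to 3028 CPM in basal, 1163 to 2037 in LP and 1697 to 2420 in ML cells, which overlap. Its basal over LP contrast passed (log2 fold change 0.46 ± 0.11, SE, edgeR adjusted p = 0.00671). In the last 400 bases of its annotated transcript, 34.6% of the stretches of 31 bases also lie in other annotated genes, so its counts are uncertain. The same share was 26.5% for Slc8b1, 76.8% for Slc25a20 and 100% for Slc39a7.

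LP cells were marked by a nucleoside carrier and by carriers of glutamate, peptides, zinc and copper. Slc28a3 (chr13:58545399-58610877), the concentrative nucleoside transporter CNT3 that takes up purine and pyrimidine nucleosides with sodium, was at 733, 318 and 236 CPM in LP cells in puberty, estrus and diestrus. In basal cells it was at 4.24, 0.861 and 0.612 CPM and in ML cells at 4.48, 4.07 and 3.18 CPM. No other lineage came near the LP range in any library. The log2 fold change was 6.85 ± 0.27 for LP over ML and -7.84 ± 0.29 for basal relative to LP (SE, edgeR adjusted p = 1.7e-07 and 9.12e-08). The equilibrative nucleoside transporter gene Slc29a1 (ENT1), the other nucleoside carrier among the members, had its higher level in basal cells, at 139 to 198 CPM against 97.6 to 118 in luminal cells.

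Slc1a1 (chr19:28835049-28913960), the epithelial and neuronal glutamate transporter EAAC1, was at 66.4, 14.6 and 10.7 CPM in LP cells in puberty, estrus and diestrus. It was at 1.25, 0.43 and 0.204 CPM in basal cells and at 0.374, 0 and 0 in ML cells. The LP values did not overlap with the others, and the basal-to-LP log2 fold change was -5.52 ± 0.32 (SE, edgeR adjusted p = 1.04e-06). The glutamate carriers Slc1a3 and Slc1a1 were thus each higher in a single and different lineage. Slc5a8 (chr10:88885992-88929515), a sodium-coupled carrier of lactate and short-chain fatty acids, was at 29.7, 22.5 and 9.94 CPM in LP cells, 0.499 to 4.09 in basal and 0.289 to 1.31 in ML cells. Its log2 fold change of LP over ML was 4.66 ± 0.53 (SE, edgeR adjusted p = 8.86e-05). Slc1a1 and Slc5a8 reached the minimum count only through LP cells, so their LP calls describe members chosen where they are high.

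Slc39a14 (ZIP14), an importer of zinc and of iron not bound to transferrin, was at 159, 91.7 and 62.6 CPM in LP cells, against 24, 12.7 and 7.75 in basal cells and 15.2, 7.65 and 10.4 in ML cells. Its log2 fold change was 3.22 ± 0.21 for LP over ML (SE, edgeR adjusted p = 2.24e-06). Slc15a2 (PEPT2), the high-affinity proton-coupled peptide transporter, was at 98.7 to 130 CPM in LP cells and at 12.7 to 20.7 in the 6 other sums, with little spread between libraries. The copper transporter gene Slc31a2 was at 12.6, 37.7 and 35.7 CPM in LP cells, and the fatty acid transporter gene Slc27a1 at 25.8, 46.1 and 20.6. Among cells with counts for none of 10 cell cycle genes, Slc31a2 was at 14.6, 43.7 and 47.9 CPM in LP cells. In such cells it was at 3, 12.6 and 11.3 CPM in basal and at 4.38, 7.38 and 13.2 in ML cells. Its pubertal LP level was thus close to adult levels of the other lineages. Slc45a3, a member of the sugar and proton cotransporter family, was at 40.2, 56.2 and 31.7 CPM in LP cells, at 18.3, 16.7 and 5.78 in ML cells and at 0.499 to 1.72 in basal cells. It was therefore both higher in LP cells and lower in basal cells. Without the library block, Slc27a1, Slc31a2 and Slc45a3 missed the threshold (edgeR adjusted p = 0.0126, 0.0355 and 0.0157).

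ML cells were marked by carriers of iodide, chloride, choline compounds, cationic amino acids and vitamins. Slc5a5 (chr8:70882889-70892757), the sodium-iodide symporter NIS of thyroid and lactating breast, was at 68.7, 37.3 and 35 CPM in ML cells in puberty, estrus and diestrus. It was at 0.749, 0.215 and 0.408 CPM in basal cells and at 1.45, 1.69 and 0.736 in LP cells. All ML sums were above all others, and log2 fold changes relative to ML cells were -6.61 ± 0.28 in basal and -5.32 ± 0.26 in LP cells (SE, edgeR adjusted p = 1.2e-07 and 4.74e-07). Slc12a2 (NKCC1), the sodium-potassium-chloride cotransporter of secretory epithelium, was at 257, 138 and 139 CPM in ML cells. In basal cells it was at 15.7, 10.3 and 8.77 CPM and in LP cells at 24.4, 9.56 and 7.36. Its log2 fold change was -3.92 ± 0.18 for basal and -3.69 ± 0.18 for LP relative to ML (SE, edgeR adjusted p = 1.57e-07 and 4.72e-07).

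Slc44a4 (chr17:34914466-34930436), of the choline transporter-like family, was at 28.5, 37.6 and 39.3 CPM in ML cells and at 2.42 to 3.31 in LP cells, while the basal sums held a single count. The log2 fold change of LP relative to ML was -3.59 ± 0.27 (SE, edgeR adjusted p = 5.52e-06), and the ML-to-basal ratio of 442 had a counting interval of 79 to 17480. Slc22a18, an organic cation transporter-like gene, was at 27.8, 45.9 and 31.5 CPM in ML cells, 4.42 to 8.24 in LP cells and 0 to 0.43 in basal cells, where it had 3 counts. The lysosomal carrier gene Slc46a3 had 2 counts in the basal sums and was at 4.05 to 6.14 CPM in LP and 7.23 to 15.5 in ML cells. These 3 genes were called lower in basal cells, which were close to empty of them.

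The cationic amino acid transporter gene Slc7a2 (CAT2), a carrier of arginine, was at 77.5, 91.6 and 63 CPM in ML cells, 5.92 to 8.39 in basal cells and 1.69 to 2.1 in LP cells. The 3 lineages did not overlap, with log2 fold changes of -3.45 ± 0.15 for basal and -5.26 ± 0.20 for LP relative to ML (SE, edgeR adjusted p = 1.41e-07 and 1.38e-07). Slc7a4, a relative of the cationic transporters, was at 39.3 to 57.9 CPM in ML, 8.1 to 15.2 in LP and 2.5 to 4.08 in basal cells. Slc38a1, a sodium-coupled carrier of glutamine, was at 33.2 to 37.7 CPM in ML cells and 2.25 to 15.7 elsewhere. The multivitamin carrier gene Slc5a6, which takes up biotin and pantothenate, was at 87.2, 78.9 and 49.7 CPM in ML cells and at 4.3 to 8.47 elsewhere. Slc25a35, a mitochondrial carrier, was at 25.5 to 44.5 CPM in ML cells and at 2.58 to 5.01 elsewhere, and the peroxisomal carrier gene Slc25a17 at 274 to 487 against 94.9 to 117. All of these separated the ML sums from the other 6 without overlap.

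Some carriers were shared by basal and LP cells and were low in ML cells. Slc43a3, which carries purine nucleobases, was at 49.4, 81.8 and 62 CPM in basal and 41.8, 26.4 and 29.5 in LP cells, against 2.62 to 4.54 in ML cells. Slc2a1 (GLUT1), the main glucose transporter of secretory mammary cells, was at 119, 81.6 and 69.4 CPM in basal, 145, 73.7 and 43.4 in LP and 32.7, 30.6 and 35.6 in ML cells. It was lower in ML than in LP cells (log2 fold change of LP over ML 1.32 ± 0.28, SE, edgeR adjusted p = 0.00409), and its basal and LP values overlapped (adjusted p = 0.791). The myo-inositol carrier gene Slc5a3 and the phosphate carrier gene Slc20a1 were called lower in ML cells as well. The 4 members called lower in LP cells were Slc7a2, Slc25a24, Slc44a2 and Slc35b1. Slc25a24 lost the call without any 1 of the 3 libraries (edgeR adjusted p from 0.0297 to 0.062). Slc44a2 lost it without the puberty or the diestrus library (0.0291 and 0.0127), and Slc35b1 without the puberty or the estrus library (0.0147 and 0.0141). Both also lost it without the library block (0.0302 and 0.0631). Slc25a24 lost it with the DESeq2 test (0.019) and with seed cells only (0.0102), and Slc7a2 with seed cells only (0.0126).

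Family groups are counted here beside the shares of all genes tested, of which 11.5% were higher in basal cells, 6.13% in LP cells and 9.83% in ML cells, 9.47%, 4.73% and 8.81% were lower in these, and 57.8% passed at least 1 contrast. Among 16 members of the Slc35 family, which bring nucleotide sugars into the Golgi or have no settled cargo, 2 were higher in ML cells and 1 in basal cells, while 4 were lower in basal cells, 1 in LP cells and 1 in ML cells. Slc35a2, the UDP-galactose carrier that feeds lactose and glycoprotein synthesis, was at 10.2 to 17.6 CPM in basal, 18 to 23.1 in LP and 21.4 to 34.2 in ML cells. It passed in the basal to ML contrast only (log2 fold change -1.03 ± 0.16, SE, edgeR adjusted p = 0.000495). Of 14 members of the zinc families (Slc30 exporters and Slc39 importers), 3 were higher in basal cells, 1 in LP cells and 1 in ML cells, while 8 passed no contrast. Slc30a4, a zinc exporter of secretory vesicles, was among those 8, at 10 to 19 CPM in basal, 10.7 to 18 in LP and 6.36 to 11.6 in ML cells. Of 27 members of the mitochondrial carrier family Slc25, the peroxisomal Slc25a17 included, 4 were higher in ML cells, 2 in basal cells and 1 in LP cells, while 13 passed no contrast. Of 19 members of families named for amino acids and peptides, Slc43a3 and the non-transporter Slc7a6os included, 6 were higher in basal cells, 3 in ML cells and 2 in LP cells, while 2 passed no contrast.

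**Figure D3:**
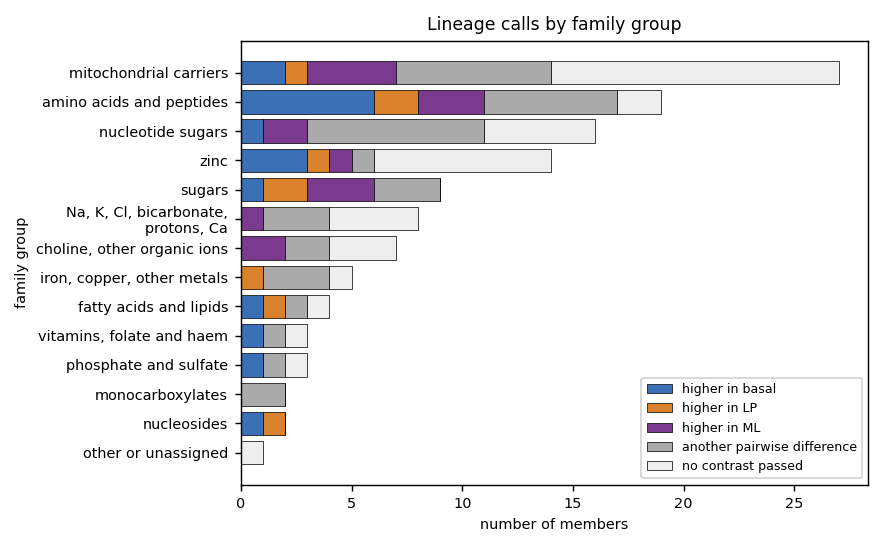
Number of members in each family group, grouped by the cargo of the Slc family number; colours give the members higher in basal, LP or ML cells, those with another pairwise difference, and those that passed no contrast. The amino acid and peptide families hold the most basal calls (6), and the Slc25 family, drawn as mitochondrial carriers with the peroxisomal Slc25a17, holds 4 ML calls and 13 members without a passed contrast.

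Further transporters known from the gland showed smaller or no differences. Slc38a2 (SNAT2), an amino acid carrier induced in lactation, was at 84.4, 136 and 62.4 CPM in basal, 61.7, 77 and 40.5 in LP and 61.3, 53.1 and 46.3 in ML cells. It passed for basal over ML cells (log2 fold change 0.75 ± 0.18, SE, edgeR adjusted p = 0.00551) and not for basal over LP cells (adjusted p = 0.0163). The lactate and pyruvate carrier gene Slc16a1 (MCT1) was at 17.1 to 27.2 CPM in basal, 5.01 to 16.2 in LP and 1.12 to 5.21 in ML cells. It passed between basal and ML cells only (3.43 ± 0.53, SE, edgeR adjusted p = 0.000405). The iron importer gene Slc11a2 (DMT1) and the citrate carrier gene Slc25a1 passed no contrast. The most even members were the riboflavin transporter gene Slc52a2, at 9.25 to 17.3 CPM over all 9 sums, the zinc importer gene Slc39a3 at 7.23 to 12.7, the Slc35e1 gene at 4.73 to 11.5 and the zinc exporter gene Slc30a6 at 9.49 to 20.6. Of the scaffolds, Slc9a3r1 was lower in basal cells, at 39.2 to 71.2 CPM against 155 to 259 in luminal cells.

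Genes that work with the carriers were examined as a separate list of 18, of which 15 were tested. The sodium pump, which sets up the sodium gradient that many carriers use, had beta subunit genes of opposite lineage pattern. Atp1b1 was at 1.51 to 6.99 CPM in basal against 67.5 to 158 in luminal cells, and Atp1b3 was at 104 to 142 against 25.6 to 54.4. Embigin (Emb) and basigin (Bsg), which escort monocarboxylate carriers to the membrane, were opposed. Emb was at 178 to 312 CPM in basal, 0 to 0.969 in LP and 38.7 to 60.4 in ML cells, whereas Bsg was at 487 to 560 in basal and 930 to 1454 in luminal cells. The water channel gene Aqp5 was at 4.09 to 7.24 CPM in basal and 163 to 452 in luminal cells. The metallothionein genes Mt1 and Mt2, which bind zinc and copper, were higher in basal cells, the ferritin genes Fth1 and Ftl1 and the stress factor gene Atf4 were lower in ML cells, Fxyd3 was higher in LP and lower in ML cells, and the potassium channel gene Kcnk1 was lower in basal cells. Each of these calls passed both contrasts in edgeR's test, while Aqp3 and Fxyd5 were neither higher nor lower in a single lineage. Of all genes tested, 11.5%, 6.13% and 9.83% were higher in basal, LP and ML cells, and 9.47%, 4.73% and 8.81% were lower. The list was chosen with earlier results of these data known, so its calls describe single genes and not transport partners as a set.

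Cycling cells were compared with cells without cell cycle transcripts inside each lineage and library, which gave 9 pairs. The 3 pairs of a library share animals and preparation, so standard errors and p-values over the 9 pairs rest on 3 libraries. Cycling cells were those with counts for 3 or more of 10 cell cycle genes, and the comparison cells had counts for none. Cycling cells held more counts per cell. In pubertal basal cells, 167 cycling cells held 1135043 counts and 825 comparison cells 2353343. The part of depth or of doublets in the differences was not tested. In edgeR's test, 7 members (5.83%) were higher in cycling cells, against a background of 15% of 8375 genes, and 22 (18.3%) were lower, against 18.6%. The members' median log2 fold change was -0.32, beside -0.13 over all genes. Slc25a5, the ADP/ATP exchanger of growing cells, was at 2452 to 3581 CPM in cycling cells and 1003 to 2953 in other cells. It was higher in cycling cells in all 9 pairs, with a log2 fold change of 0.83 ± 0.09 (SE, edgeR adjusted p = 2.19e-06). The mitochondrial carriers Slc25a4, Slc25a3 (phosphate) and Slc25a10 (dicarboxylates) were also higher in all 9 pairs, with log2 fold changes of 0.47 ± 0.09, 0.32 ± 0.07 and 1.02 ± 0.27. The other members higher in cycling cells were the folate carrier gene Slc19a1 (0.79 ± 0.17), the amino acid exchanger gene Slc7a5 (0.91 ± 0.23) and the phosphate carrier gene Slc20a2 (0.69 ± 0.19), with edgeR adjusted p from 0.00126 to 0.00805 and a higher level in 7 or 8 of 9 pairs. Leaving out the puberty, estrus or diestrus library left 3, 2 or 4 members higher, and a definition by Mki67 or Top2a left 3. Slc25a3 missed the threshold without any 1 of the libraries, Slc19a1 without puberty or estrus and Slc7a5 without estrus or diestrus. The 2 members left without estrus were Slc25a5 and Slc25a4, and the 3 left without puberty were these and Slc7a5. Slc25a10 and Slc20a2 thus missed the threshold without puberty and without estrus as well. Without the block of lineage and library, 1 member was higher and 3 were lower. Shares of all genes under these alternatives are not given here, so the lower counts are not read as a trait of the members.

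Several lineage members were lower in the cycling cells of their own lineage. Slc5a5 was at 17.8, 2.59 and 5.4 CPM in cycling ML cells of puberty, estrus and diestrus, against 82.7, 49.6 and 46.8 in other ML cells. Slc12a2 was at 108, 32.4 and 25.7 CPM in cycling ML cells against 299, 166 and 181. The cycling ML sums were below the others in every library for both genes, and the log2 fold changes over the 9 pairs were -2.55 ± 0.35 and -1.39 ± 0.29 (SE, edgeR adjusted p = 2.5e-05 and 0.000983). Slc28a3 was at 361, 137 and 210 CPM in cycling LP cells against 904, 380 and 288 in other LP cells (log2 fold change -1.03 ± 0.19, SE, adjusted p = 0.000455). Slc45a3 was lower in cycling cells in all 9 pairs, and in LP cells it was at 11.9, 8.59 and 10.9 CPM against 53.7, 72.3 and 48.8.

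**Figure D4:**
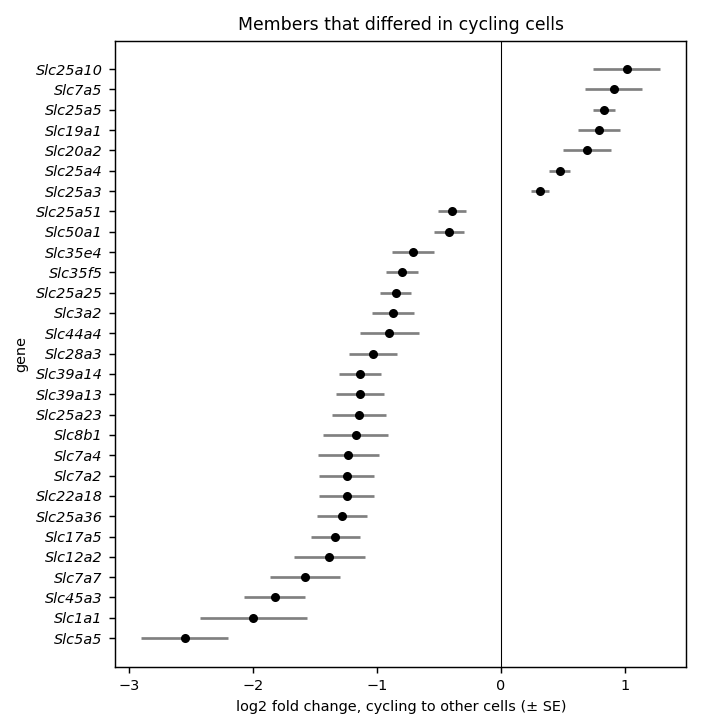
Log2 fold change of cycling over other cells (x axis, points with SE bars, 9 pairs from 3 libraries) for the 29 members past the threshold (rows). Slc25a10 at 1.02 and Slc7a5 at 0.91 are farthest to the right, and Slc5a5 at -2.55 is farthest to the left.

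Stages could be described only as values, because each stage had 1 library. Ratios were taken on log2(CPM + 1) among genes with at least 20 CPM in 1 of the paired sums, and intervals are exact 95% intervals for counting error only. A member under 20 CPM in the other sum entered only through the sum where it was higher, so its ratio is a description. Stage, animals and library preparation cannot be told apart, and the puberty library enters both the puberty to estrus and the puberty to diestrus comparison. Over the 3 lineages 12 pairs of a member and a lineage were past 2-fold in puberty to estrus with TMM scaling and 20 with library totals. The share of all genes with library totals is not given here. Members past 2-fold are counted below by lineage and direction, each count beside the share of all genes. In LP cells 9 of 50 members were past 2-fold in puberty over diestrus, beside 5.32% of all genes, and 5 of 55 were past 2-fold in puberty over estrus, beside 5.65%. In estrus over diestrus the count was 5 of 52, beside 4.27%, and in diestrus over estrus 0 of 52, beside 6.87%. Slc31a2 alone was past 2-fold in estrus over puberty and in diestrus over puberty, beside 2.54% and 3.18%. In ML cells 1 member, Slc35d2, was past 2-fold in any comparison. It was at 20.1 CPM in estrus and 8.39 in diestrus, beside 2.07% of all genes in that direction. Slc35d2 reached the 20 CPM in ML cells only in estrus. Without its 121 estrus counts its total of 361 would fall under the minimum count, so its ratio is a description as well. In the other ML directions none of 52 to 54 members was past 2-fold. The shares of all genes were 4.38% for diestrus over estrus, 5.39% for puberty over estrus and 1.99% for estrus over puberty. They were 4.02% for puberty over diestrus and 1.57% for diestrus over puberty.

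The LP carriers Slc1a1, Slc28a3 and Slc39a14 all had their highest LP value in puberty. For Slc1a1 the log2 ratio was 2.11 to estrus (interval 1.61 to 2.81) and 2.53 to diestrus (2.09 to 3.23). Slc1a1 had 458 of its 531 counts in puberty and reached both the 300 counts and the 20 CPM only through that library, so its ratio is a description of a member chosen where it is high. For Slc28a3 it was 1.20 to estrus (1.08 to 1.33) and 1.63 to diestrus (1.52 to 1.76). Slc25a33, a mitochondrial pyrimidine nucleotide carrier, was at 389 CPM in pubertal LP cells, 99 in estrus and 70.7 in diestrus, against 62.3 to 67.7 in ML cells. Its log2 ratio of puberty to diestrus was 2.44 (2.25 to 2.68) with TMM scaling and 2.15 with library totals. It was not called higher in LP cells, since the LP over ML contrast missed the threshold (log2 fold change 1.20 ± 0.45, SE, edgeR adjusted p = 0.0555). The phosphate carrier gene Slc20a1 was at 59.1, 18 and 19.5 CPM in LP cells of puberty, estrus and diestrus, and Slc2a1 at 145, 73.7 and 43.4. The copper carrier gene Slc31a2 went the other way, at 12.6, 37.7 and 35.7 CPM, with a log2 ratio of puberty to estrus of -1.51 (-2.07 to -1.09). In LP cells Slc20a1 reached the 20 CPM only in puberty and Slc31a2 only in the adult libraries. Their stage values are likewise descriptions of members chosen where they are high.

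In basal cells, Slc1a3 had a log2 ratio of 2.06 for puberty to estrus (1.75 to 2.54) and 2.19 for puberty to diestrus (1.88 to 2.69). Of its 435 counts, 287 were in puberty, and Slc1a3 reached both the minimum count and the minimum CPM only through that library. Its ratios, like those of Slc1a1, are therefore descriptions of a member chosen where it is high. The taurine carrier gene Slc6a6 was highest in estrus, with a log2 ratio of -1.43 for puberty to estrus (-1.66 to -1.25) and -1.19 for diestrus to estrus (-1.38 to -1.02). Slc38a2 was also at its highest basal value in estrus, with a log2 ratio of -1.11 for diestrus to estrus (-1.32 to -0.92). Slc3a2 stood at 383 CPM in puberty and 784 in estrus in basal cells. Slc25a33 was lowest in estrus among the basal sums, at 14.9 CPM against 50.4 in puberty and 35.7 in diestrus. In diestrus over estrus, 1 of 52 basal members was past 2-fold beside 5.89% of all genes, and in estrus over diestrus 3 of 52 were, beside 4.21%. In puberty over estrus the basal count was 2 of 55, beside 5.75%, and in estrus over puberty 4 of 55, beside 5.53%. In puberty over diestrus it was 4 of 51, beside 3.92%, and in diestrus over puberty 1 of 51 (Slc30a6), beside 2.69%.

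**Figure D5:**
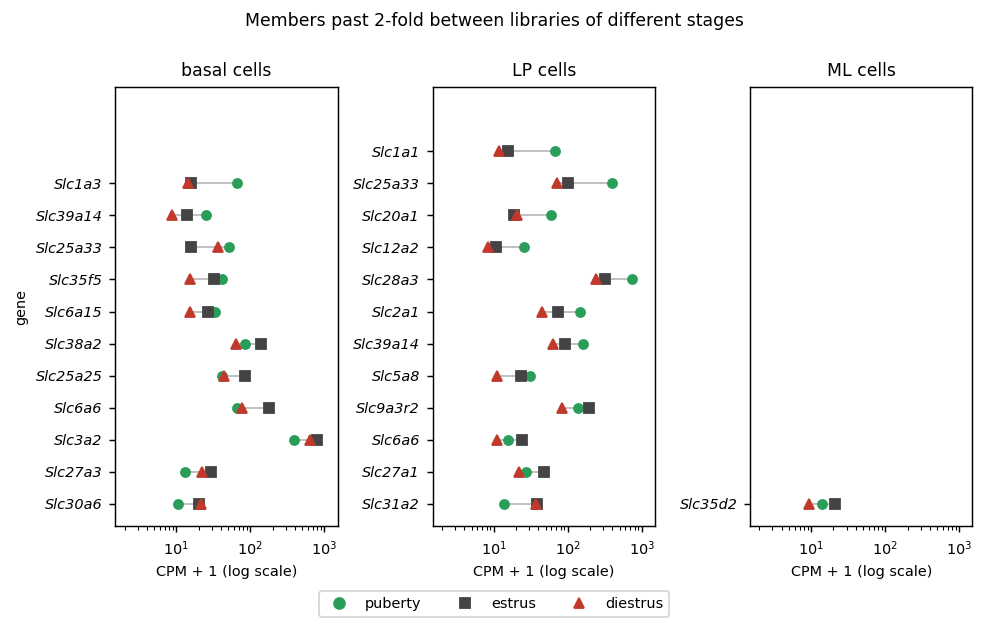
CPM + 1 on a log axis of members past 2-fold between any pair of libraries, in basal, LP and ML cells (panels); green circles are puberty, black squares estrus and red triangles diestrus, 1 library each. The widest spans are those of Slc1a1 and Slc25a33 in LP cells and Slc1a3 in basal cells, each with puberty highest, and ML cells hold Slc35d2 alone.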

How the data were processed

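The authors captured single cells on the 10x Genomics Chromium platform, sequenced them on a NextSeq 500 and made the tables with Cell Ranger 2.0 on mm10, per the labels. The deposited values are counts of molecules per gene and cell barcode, without normalization, and all barcodes in a table were used. For puberty these were 5428, of which 5387, the number of pubertal cells in the labels, were also in the second table. The lower limit of counts per barcode is not given in the sources used here. The first puberty table, the estrus table and the diestrus table were used. The second puberty table shared 5387 barcodes with the first (99.2%) with a Pearson correlation of 0.997 of cell totals, so the 2 tables were taken as 1 library, and the second served as an alternative. Other pairs of libraries shared at most 24 barcodes.

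Seed cells of each lineage were taken from 8 markers, and signatures of up to 100 genes at least 2-fold higher in the seeds placed all cells. Slc genes, their partner list and cell cycle genes were kept out of the signatures. Cells that held 3 or more of the 5 genes of an immune, endothelial or fibroblast list, at a higher level than keratins, were set aside, as were luminal intermediate and mixed basal-luminal cells. Doublets were not called by a separate tool. Counts were summed per lineage and library. Sums from the same library share animals and preparation, so the library was the block that pairs them (lineage and library combined for cycling cells).

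Tests were run with edgeR 4.0.16 in R 4.3.3 (TMM, quasi-likelihood, two-sided, Benjamini-Hochberg over all genes, threshold 0.01), which were tested on simulated data first. DESeq2 1.42.0 was an alternative. Stage ratios used a pseudocount of 1 CPM. CPM in the text are counts per 1e6 of the effective (TMM-scaled) size of a sum, except for cell type markers, which are per 1e6 counts of the unscaled sum. Normalization, filters, thresholds, classes, the block and single libraries were varied. Ratios with a low count of 1 to 3 use an exact conditional 95% interval. Intervals cover counting error only, since reads were collapsed to molecules but cells of 1 library are not independent samples. Gene positions are from GENCODE M21 (GRCm38), and promoters from RefSeq.

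Named members were, by rule, up to 8 higher and 4 lower members per lineage ranked by the smaller fold change, up to 3 per direction, lineage and stage comparison, up to 5 per direction in cycling cells, the 4 most even, and a list of transporters known in the gland. Others named were chosen after their values were seen. The members and lists were chosen with earlier results of these data known. The adipocyte and Schwann lists and the choice of promoters were added after values were seen. Single genes that entered the counts of members or partners are not reported here by name.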

Additional observations from a re-analysis of the deposited data

How the results depend on the processing

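No result reversed its direction under any alternative run. Over the named members, 819 values stayed the same. For lineage and cycling values this means that they kept their direction and side of the threshold. For stage ratios it means only that they stayed within their counting interval, since the 2-fold and 20 CPM limits were not asked of them. Another 35 lineage or cycling values kept the direction and lost the threshold, and 6 stage ratios moved by more than their counting interval. The members higher in basal (17) and ML cells (16) stayed within 1.5 times under every alternative. Sums of the same library are paired, and without the replicate block the members higher in LP cells fell from 9 to 5, those that differed between LP and ML cells from 41 to 27, those higher in cycling cells from 7 to 1 and those lower from 22 to 3. At a threshold of 0.05, 14 were higher in LP cells, 13 higher and 40 lower in cycling cells. Cycling defined by Mki67 or Top2a left 3 higher. The cause of these shifts was not tested, beyond the looser threshold and the dropped block themselves. Shares of all genes under the alternatives are not given here, so these counts do not tell a change of the members from one of all genes.

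With 1 library left out in turn, the members higher were 14 to 15 in basal, 9 to 10 in LP and 13 to 16 in ML cells, those that differed were 41 to 42 between basal and LP, 54 to 56 between basal and ML and 32 to 37 between LP and ML, and 2 to 4 were higher and 15 to 17 lower in cycling cells. Over the 3 lineages, members past 2-fold in diestrus to estrus were 10, but 4 with a pseudocount of 5 CPM, 3 with a minimum of 50 CPM and 16 without the top 5% of cells. In puberty to estrus they were 12, but 20 with library totals and 19 with seed cells only, and in puberty to diestrus 15, but 7 with a minimum of 50 CPM. With library totals the median of all genes shifted by 0.14 (log2) for basal to LP, -0.15 for LP to ML, and -0.26 and -0.28 for puberty to estrus and to diestrus in LP cells. It shifted by -0.25 and -0.12 in ML cells for the same comparisons, by -0.14 for diestrus to estrus in ML cells and by -0.13 for puberty to estrus in basal cells. These counts of members also stand without the share of all genes at the same setting. Depth limits members near 300 counts, and 1 library per stage leaves stage without a test.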

Other observations

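Members outside the leading ones also followed lineage, and they are given here as values chosen after they were seen. Slc50a1, the mammalian SWEET sugar transporter of the Golgi, was at 187, 226 and 196 CPM in ML cells of puberty, estrus and diestrus and at 64.4 to 91 in the other 6 sums. Slc25a39, a mitochondrial carrier of glutathione, was at 111 to 204 CPM in ML cells and 53.2 to 95.8 elsewhere. Slc39a11, of the zinc importer family, was at 26.8 to 33.5 CPM in ML, 9.56 to 16.2 in LP and 3.87 to 8.16 in basal cells. Slc44a3, a choline transporter-like gene, was at 6.99 to 8.37 CPM in basal cells and 23.6 to 50.2 in luminal cells. The copper importer gene Slc31a1 was at 29.8 to 51.7 CPM in basal and 49.3 to 83 in luminal cells, and the magnesium carrier gene Slc41a1 at 11.2 to 11.7 in ML and 19.8 to 32.7 in the other sums. Slc25a13, the mitochondrial aspartate and glutamate exchanger citrin, was at 25.2 to 32 CPM in basal and 6.07 to 11.3 in luminal cells. The dicarboxylate carrier gene Slc25a10 was at 11 to 22.6 CPM in basal and 32.6 to 66.8 in luminal cells. Within basal cells it was at 42.1, 35.1 and 42.9 CPM in cycling cells against 4.5, 6.3 and 5.94 in other cells, while in ML cells it was at 63.5 to 85.1 against 51 to 60.5; the difference between lineages was not tested.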
